A study of Mus musculus with 3 samples.

Results

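The metalloproteinase genes described here are the members of 5 families of the extracellular proteolysis system. They were chosen by name: a platform gene symbol of Adam, Adamts, Adamtsl, Mmp or Timp followed by a number, together with Adamtsl4, which the platform lists under the older name Tsrc1. The rule found 119 probes of 74 genes, out of 38880 probes and 28338 features on the arrays. These were 29 Adam genes, 16 Adamts, 3 Adamtsl, 22 Mmp and 4 Timp. Each of 3 arrays with 2 colours set cortex RNA of Snf2l-Ex6DEL mice against cortex RNA of wild type controls, both on the 129Sv background and both taken at embryonic stage E15.5. In Snf2l-Ex6DEL mice exon 6 of Snf2l, now named Smarca1 and coding for a chromatin remodelling ATPase, is deleted. Replicates 1 and 2 compared the same mutant and wild type RNAs with the dyes exchanged and form pair 1, and replicate 3 compared a second mutant sample with a second wild type sample and forms pair 2, so that n = 2 biological pairs. The labels do not say whether a sample held 1 or several embryos, nor their sex or litter. Values are log2 ratios, read as mutant over wild type. No source used here states the direction. It is taken as likely because channel 1 is labelled wild type, channel 2 mutant, and the comparison is described as mutant against control. If the ratios ran the other way, every sign below would turn.

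These families share the work of cutting and remodelling proteins outside the cell. MMPs are secreted or membrane-bound zinc proteases of matrix proteins, ADAMs are membrane proteins of which some shed the outer part of receptors and ligands such as Notch and its ligands, and ADAMTS enzymes are secreted proteases of proteoglycans and procollagens. ADAMTS-like proteins resemble ADAMTS enzymes without their protease domain and bind to matrix microfibrils, and TIMPs inhibit the proteases. In the developing cortex such enzymes are known from axon and vessel growth, the meningeal basement membrane and Notch signalling, and many ADAM genes of the mouse are known mainly from testis and sperm.

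None of the 74 genes passed the test of mutant against wild type, limma's moderated test over the 2 pairs with Benjamini-Hochberg adjustment over all 28338 features. The calls were 0 of 28338 in either direction (0%), and the members' adjusted p ran from 0.852 to 0.997. At an unadjusted p of 0.05, 3 members were lower in the mutant (Adamtsl4, Adamts16 and Adam15) and 0 higher, where 1.51% of all features were lower and 1.02% higher. Counted by size instead, 5 members were at least 1.5-fold lower on all 3 arrays, against 1.74% of all features: Adamtsl4, Adamts16, Adamtsl1, Mmp9 and Adam15. Adamts16 passed only as the mean of its 2 probes. No member was that much higher on all 3, against 1.12% of features. With every probe as a feature, 7 probes were that much lower on all 3 arrays and 1 higher, a probe of Adam11. The share over all 38880 probes was not counted, so these probe counts have no background beside them. On both arrays of pair 1, 23 of the 74 (31.1%) were at least 1.5-fold lower, against 9.17% of all features and 10.6% of those with a gene symbol, and 2 were that much higher, against 5.55%. On replicate 3 the members were spread as the rest, with 17 lower (23.0%, against 22.4%) and 14 higher (18.9%, against 19.5%). The 23 genes were thus set by pair 1 and were not shared as a group by pair 2: on replicate 3, 12 of them were below 0, 8 above 0 and 3 had no measurement. Of all 28338 features, 11608 were below 0 on replicate 3 and 10640 above 0. The pairs were also unlike over all features, with a Pearson's r of -0.066 between the mean of pair 1 and replicate 3. The array medians over all features were 0.009, 0 and 0.001, while those of the 74 genes were -0.69, -0.26 and 0.001. These are bulk samples, in which fewer cells of a type and less RNA per cell cannot be told apart, and the ratios give no level of any gene.

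**Figure D1:**
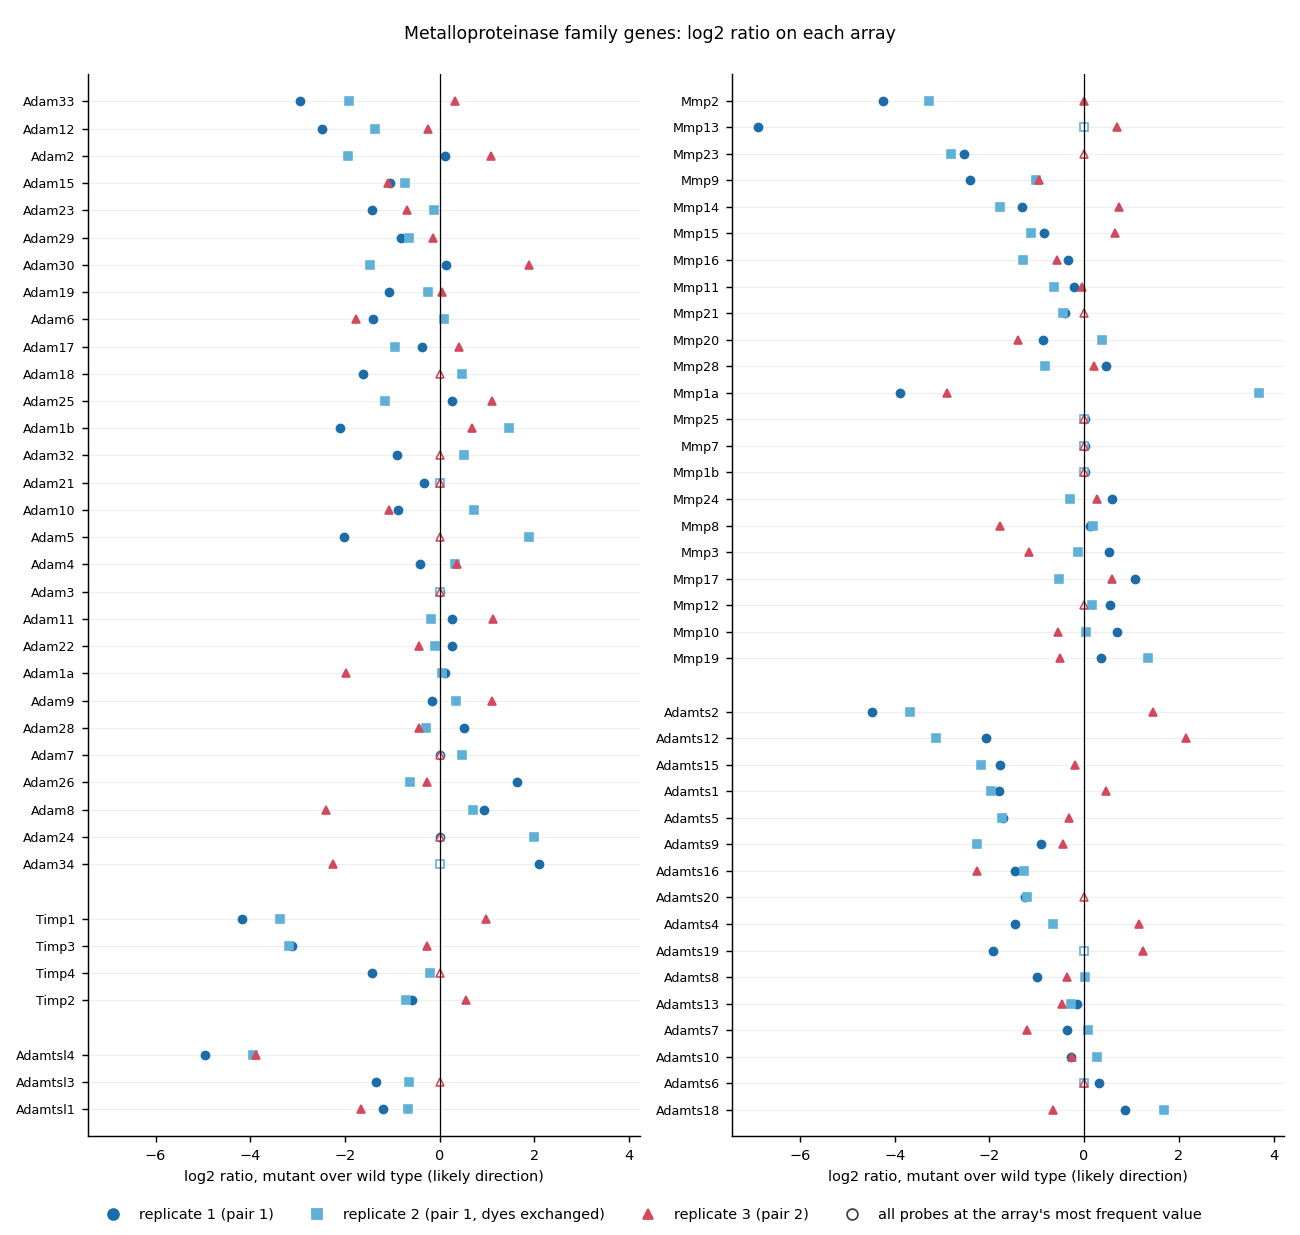
Log2 ratio of each of the 74 genes on replicate 1 (dark blue circles), replicate 2 (light blue squares) and replicate 3 (red triangles), 1 row per gene, sorted within each family by the mean of pair 1. Hollow symbols mark genes whose probes all sat at the array's most frequent value. Adamtsl4 lies near -4 or lower on each array, while Adamts2, Timp1 and Mmp2 are far below 0 on both arrays of pair 1 and near or above 0 on replicate 3.

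On each array a single value near 0 was shared by many spots, 0.009, 0 and 0.001 on replicates 1 to 3, and a value there is called no measurement and given no sign. Such values were kept as they stand in averages over probes, in medians and in the limma test. Taken as missing instead, they moved the family medians over the pairs from -0.12 to -0.35 for Adam, from -1.30 to -2.73 for Adamtsl and from -0.22 to -0.61 for Mmp. Of the 74 genes, 20 had all their probes at it on at least 1 array, and Adam3, Mmp1b, Mmp7 and Mmp25 on all 3. Of the other 54 genes, 16 were below 0 on all 3 arrays (29.6%, against 14.7% of the 18952 features measured on all 3) and 0 were above, against 12.9%. A further 11 were below 0 on both arrays of pair 1 and above on replicate 3 (20.4%, against 15.4%), and 6 the reverse (11.1%, against 2940 of the 18952 features). At 1.5-fold or more, 6 members were lower on both arrays of pair 1 and higher on replicate 3, against 2.71% of features (Adamts2, Adamts4, Adamts12, Mmp14, Mmp15 and Timp1). The reverse held for 2, Adam8 and Adamts18, against 1.33% of features. In 14 genes replicates 1 and 3 had the opposite sign to replicate 2, the order of the dyes, a share of 25.9% near the 24.8% of measured features. In 7 replicate 1 stood against the other 2 (13.0%, against 16.6%).

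All 3 ADAMTS-like members were at least 1.5-fold lower on both arrays of pair 1, against 9.17% of features. The 2 measured on pair 2 were that much lower there too, against 22.4%. Other probes of the family, listed under older names and left out of the members, did not all lie below 0. That for Adamtsl1 read 1.13 and 0.49 on replicates 2 and 3. Adamtsl2, measured only by such a probe, read -0.84, 0.61 and -1.28, and Adamtsl5, likewise, -2.15 and 0.062 on replicates 1 and 3. Neither gene was at least 1.5-fold lower on both arrays of pair 1. With these probes the family median over the pairs was -0.70 in place of -1.30. Adamtsl4, whose protein binds fibrillin microfibrils, read -4.96, -3.94 and -3.87 on replicates 1 to 3. All 3 values lie together, more than 3 log2 units from 0, and both dye orders and both pairs show the same sign. Its mean over the pairs was -4.16 ± 0.29 (limma's moderated SE, n = 2 pairs), or 17.9-fold lower in the mutant, with an unadjusted p of 0.00419 in limma that did not pass adjustment (adjusted p = 0.852). A single probe measured it. Adamtsl1, also named punctin, read -1.21, -0.66 and -1.66, below 0 on each array, with a mean of -1.30 ± 0.33 (moderated SE). Adamtsl3 read -1.35 and -0.64 on pair 1 and had no measurement on pair 2.

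The 4 TIMP inhibitors were all below 0 on both arrays of pair 1, against 22.9% of all features. Timp1, an inhibitor of most MMPs, read -4.17, -3.38 and 0.97, and its pair 1 mean was 13.7-fold lower in the mutant while pair 2 lay on the other side of 0. Timp3, which binds to the matrix and also inhibits ADAMs and ADAMTS enzymes, read -3.13, -3.19 and -0.26. Its 2 probes gave -2.65 and -3.61 on replicate 1, -2.72 and -3.66 on replicate 2, and -0.095 and -0.42 on replicate 3. Both probes were far below 0 in pair 1 and nearer to 0 in pair 2, and differed from each other by 0.96, 0.94 and 0.33 log2 units. Timp2, which also takes part in the activation of Mmp2, read -0.58, -0.71 and 0.56. Timp4 read -1.43 and -0.20 and had no measurement on replicate 3. Over the pairs the means were -1.40 ± 1.66 for Timp1, -1.71 ± 1.03 for Timp3, -0.044 ± 0.47 for Timp2 and -0.41 ± 0.35 for Timp4 (moderated SE, n = 2 pairs). None of these exceeded the spread between the pairs by limma's test, with adjusted p-values of 0.852 to 0.997.

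The family medians for TIMPs were -2.28, -1.95 and 0.28 on replicates 1 to 3, and those for ADAMTS-like genes -1.35, -0.66 and -1.66. The TIMP median of replicate 3 lies between genes of both signs: Timp1 and Timp2 were above 0 there, Timp3 below, and Timp4 enters at the most frequent value.

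Promoters are shown for the 5 members with the lowest mean ratios of pair 1 among those with a RefSeq promoter entry, so that their start regions can be set side by side. The value of Mmp13 rests on replicate 1 alone. RefSeq's table of GRCm38.p6 gave 48 promoters for 43 of the 74 genes. Each sequence below is the 250 bases before the start site, 5′ to 3′ on the gene's strand. Capitals mark the motifs searched on both strands: the GC box GGGCGG, the AP-1 site TGANTCA and the TATA box TATAAA, none of which overlaps another in these windows. The windows are chr3:95687918-95688167 (minus strand) for Adamtsl4, chr11:50601835-50602084 (plus) for Adamts2, chrX:20869916-20870165 (plus) for Timp1, chr10:86300162-86300411 (plus) for Timp3 and chr9:7272264-7272513 (plus) for Mmp13.
Adamtsl4: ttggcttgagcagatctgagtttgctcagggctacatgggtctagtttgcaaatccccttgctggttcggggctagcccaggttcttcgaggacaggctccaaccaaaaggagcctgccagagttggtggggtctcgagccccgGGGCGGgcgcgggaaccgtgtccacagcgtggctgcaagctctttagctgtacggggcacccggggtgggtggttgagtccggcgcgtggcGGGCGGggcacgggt
Adamts2: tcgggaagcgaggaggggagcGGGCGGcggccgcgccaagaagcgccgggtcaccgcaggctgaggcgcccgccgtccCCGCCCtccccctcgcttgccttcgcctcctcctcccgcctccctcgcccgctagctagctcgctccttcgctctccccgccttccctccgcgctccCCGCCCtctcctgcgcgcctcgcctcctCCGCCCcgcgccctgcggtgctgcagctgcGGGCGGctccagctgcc
Timp1: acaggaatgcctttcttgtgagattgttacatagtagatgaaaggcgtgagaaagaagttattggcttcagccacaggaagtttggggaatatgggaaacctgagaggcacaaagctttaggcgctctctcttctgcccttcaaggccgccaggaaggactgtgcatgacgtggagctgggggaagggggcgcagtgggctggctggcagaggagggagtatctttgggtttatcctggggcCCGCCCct
Timp3: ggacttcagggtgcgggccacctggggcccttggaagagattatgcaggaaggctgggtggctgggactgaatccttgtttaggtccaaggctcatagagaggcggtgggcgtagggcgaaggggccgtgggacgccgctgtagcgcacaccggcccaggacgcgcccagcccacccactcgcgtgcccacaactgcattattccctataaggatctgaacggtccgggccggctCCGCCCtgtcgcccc
Mmp13: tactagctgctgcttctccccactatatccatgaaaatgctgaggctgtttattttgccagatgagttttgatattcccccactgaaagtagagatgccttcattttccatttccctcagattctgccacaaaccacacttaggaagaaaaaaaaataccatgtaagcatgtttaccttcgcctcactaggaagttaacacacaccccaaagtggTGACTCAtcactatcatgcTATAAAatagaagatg
The GC box occurs 2 times in the Adamtsl4 window, 5 times in that of Adamts2 and once each in those of Timp1 and Timp3, and not in that of Mmp13. Mmp13 instead holds 1 AP-1 site and 1 TATA box, the arrangement known from inducible MMP genes. Among the members chosen by their values as at least 1.5-fold lower on both arrays of pair 1, 11 of 15 promoters (73.3%) held a GC box, against 9 of 33 (27.3%) for the other members and 32.7% of all 32851 promoters. The AP-1 site was in 1 of those 15 (6.67%), in 10 of the other 33 (30.3%) and in 6.75% of all promoters. A match in these windows is a description of the letters only.

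Among the ADAMTS proteases, the genes of proteoglycan-cleaving enzymes were mostly lower in pair 1 and mixed in pair 2. Of the 7 (Adamts1, Adamts4, Adamts5, Adamts8, Adamts9, Adamts15 and Adamts20), 6 were at least 1.5-fold lower on both arrays of pair 1, against 9.17% of all features, and 0 were higher. On replicate 3, 0 of the 7 were that much lower, against 22.4% of features, and 1 was higher, Adamts4, against 19.5%, while Adamts20 had no measurement. Their medians were -1.45, -1.73 and -0.19. Adamts1, which cleaves aggrecan and versican, read -1.80, -1.97 and 0.47. Its 3 probes lay between -2.45 and -1.07 on replicate 1 and between -2.72 and -1.41 on replicate 2. Adamts5, the main aggrecanase of mouse cartilage, read -1.71, -1.73 and -0.32, Adamts15 -1.77, -2.17 and -0.19, and Adamts9 -0.91, -2.26 and -0.45. On replicate 2 the value of Adamts5 averages a probe at -3.47 and one at the most frequent value. The means of all 3 genes were below 0 on each array. For Adamts5, 2 probes with an older platform name, left out of the members, read above 0 (2.91 and 1.12 on replicate 1). Not every probe of Adamts9 was below 0: on replicate 1, 1 of its 3 probes read 2.53 and the others -2.29 and -2.97. Adamts20, named after its values were seen, read -1.25 and -1.21 with no measurement on pair 2. Adamts4, likewise, read -1.45, -0.66 and 1.16.

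The other 9 ADAMTS genes were mixed. Adamts2, the procollagen N-proteinase needed to trim fibrillar collagens, read -4.48, -3.68 and 1.45, 16.9-fold lower in pair 1 and above 0 in pair 2. Each of its 3 probes was below -2.4 on both arrays of pair 1. On replicate 3 they read 2.91, 1.43 and the most frequent value. Adamts12, which cleaves the cartilage protein COMP, read -2.07, -3.12 and 2.15. Its 2 probes were below 0 on both arrays of pair 1, and the 2.15 is the mean of 4.30 and a probe at the most frequent value. Adamts16 was below 0 on every array, at -1.46, -1.26 and -2.27. Its mean of -1.81 ± 0.38 (moderated SE, n = 2 pairs) had an unadjusted p of 0.038 in limma and an adjusted p of 0.852. Its 2 probes differed in size, -0.49 and -2.43 on replicate 1 and -4.20 and -0.34 on replicate 3. Neither probe by itself was at least 1.5-fold lower on all 3 arrays. Adamts18 was the one ADAMTS gene above 0 on both arrays of pair 1, at 0.86 and 1.69, and read -0.66 on replicate 3. The 0.86 is the mean of 2 probes of opposite sign, 2.13 and -0.40. Adamts13, the protease of von Willebrand factor, read -0.14, -0.28 and -0.47. Adamts6, Adamts7, Adamts10 and Adamts19 had pair 1 arrays of opposite sign or without measurement.

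Over all 16 ADAMTS genes the medians were -1.35, -0.94 and -0.22, and 9 were at least 1.5-fold lower on both arrays of pair 1 (against 9.17% of features) and 1 higher (against 5.55%). Replicates 1 and 2, which share both RNAs, had a Pearson's r of 0.82 across these genes, while the mean of pair 1 and replicate 3 had -0.50. Genes are no independent replicates, and over all features the values were 0.24 and -0.066.

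Among the MMPs, the gelatinases were the group with both members below 0 on all 3 arrays, against 14.7% of features measured on all 3. Mmp2, the gelatinase of fibroblasts, read -4.24, -3.28 and -0.013, 13.5-fold lower in pair 1 and near 0 on the log2 scale in pair 2. Mmp9, the gelatinase of neutrophils and osteoclasts, read -2.42, -1.02 and -0.95, the one MMP gene at least 1.5-fold lower on each array. Its mean of -1.33 ± 0.34 (moderated SE, n = 2 pairs) had an adjusted p of 0.852 in limma. Mmp2 and Mmp9 had 1 probe each.

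Of the 6 membrane-type MMPs, Mmp14 and Mmp15 were lower in pair 1 and higher in pair 2. Mmp14, the activator of Mmp2, read -1.32, -1.78 and 0.73, and Mmp15 -0.84, -1.13 and 0.65. Mmp16 read -0.33, -1.29 and -0.58, with probes that differed in sign on replicate 1. Mmp17 and Mmp24 changed sign with the dyes, and Mmp25 had no measurement. The secreted stromelysins and matrilysin kept no common sign. Mmp11 read -0.21, -0.64 and -0.040. Mmp3 read 0.52, -0.12 and -1.17, at least 1.5-fold lower on replicate 3 through 1 of its 2 probes, at -2.35, and Mmp10 read 0.70, 0.050 and -0.55 (both named after their values were seen). Mmp7 had no measurement.

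The collagenases were not measured consistently. Mmp8, the collagenase of neutrophils, read 0.12, 0.19 and -1.78. Mmp13, a collagenase of cartilage and bone, and Mmp1a were named after their values were seen. The 2 probes of Mmp13 read -5.37 and -8.43 on replicate 1, while on replicate 2, with the same RNAs, both sat at the most frequent value. Mmp1a read -3.90, 3.70 and -2.89, large on each array and of the sign of the dye order, with the Cy3 side brighter on all 3. Such a pattern at 1.5-fold or more was found for 2 members, Mmp1a and Adam10, against 1.35% of features, and the reverse for 0 members, against 0.66%. Mmp23, also named after its values were seen, read -2.53 and -2.81 with no measurement on pair 2. Mmp19 read 0.36, 1.36 and -0.50, and its 2 probes differed in sign on both arrays of pair 1.

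Over all 22 MMP genes the medians were -0.10, -0.21 and 0.001, and 5 genes were at least 1.5-fold lower on both arrays of pair 1, against 9.17% of features (Mmp2, Mmp9, Mmp14, Mmp15 and Mmp23). None was that much higher on both, against 5.55%.

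The ADAM genes are given by their known sites of expression, and the difference between the groups was not tested. The 17 genes known mainly from testis, sperm or epididymis had medians of 0.009, 0.044 and 0.001. Of them 1, Adam29 (-0.81, -0.64 and -0.15), was below 0 on both arrays of pair 1 (5.88%, against 22.9% of all features). This rests on 1 of the 2 probes of Adam29, at -2.17, -1.29 and -0.30. The other read 0.55 on replicate 1 and sat at the most frequent value on replicates 2 and 3. Of these 17, 8 were at the most frequent value on at least 1 array, and the medians of replicates 1 and 3 are that value itself. Replicates 1 and 2 had an r of -0.47 across these genes. The 9 ADAMs known as proteases in many tissues had medians of -0.87, -0.28 and -0.25. Below 0 on both arrays of pair 1 were 5 of the 9 (55.6%, against 22.9% of all features). Of the 9, 3 were at least 1.5-fold lower on both, against 9.17% of features, and 1 higher, against 5.55%. Adam33 read -2.95, -1.92 and 0.32, and Adam12, known from muscle and bone formation, -2.49, -1.36 and -0.25. The 2 probes of Adam12 read -3.10 and 0.37 on replicate 2. Adam15 read -1.06, -0.73 and -1.08, close together on all 3 arrays. Its mean of -0.99 ± 0.22 (moderated SE, n = 2 pairs) had an unadjusted p of 0.044 in limma and an adjusted p of 0.852.

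The main sheddases were not among the large ratios. Adam10, the protease that cleaves Notch at the cell surface, read -0.87, 0.72 and -1.07, the sign of the dye order. Its 2 probes were of the same sign on each array. Adam17, the sheddase of tumour necrosis factor and several growth factors, read -0.37, -0.94 and 0.41. Adam19 read -1.07, -0.24 and 0.057. Adam8, of leukocytes, was the one ADAM at least 1.5-fold higher on both arrays of pair 1, at 0.93 and 0.71, and read -2.39 on replicate 3. The 0.71 is the mean of 2 probes of opposite sign, -0.15 and 1.58. The 3 neuronal ADAMs without protease activity bind LGI proteins at synapses. Of these Adam23 read -1.42, -0.11 and -0.69, while Adam11 (0.26, -0.19 and 1.13) and Adam22 (0.25, -0.091 and -0.44) changed sign between arrays. Of the 3 probes of Adam11, 1 was above 0 on each array, at 0.77, 0.85 and 3.53.

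**Figure D2:**
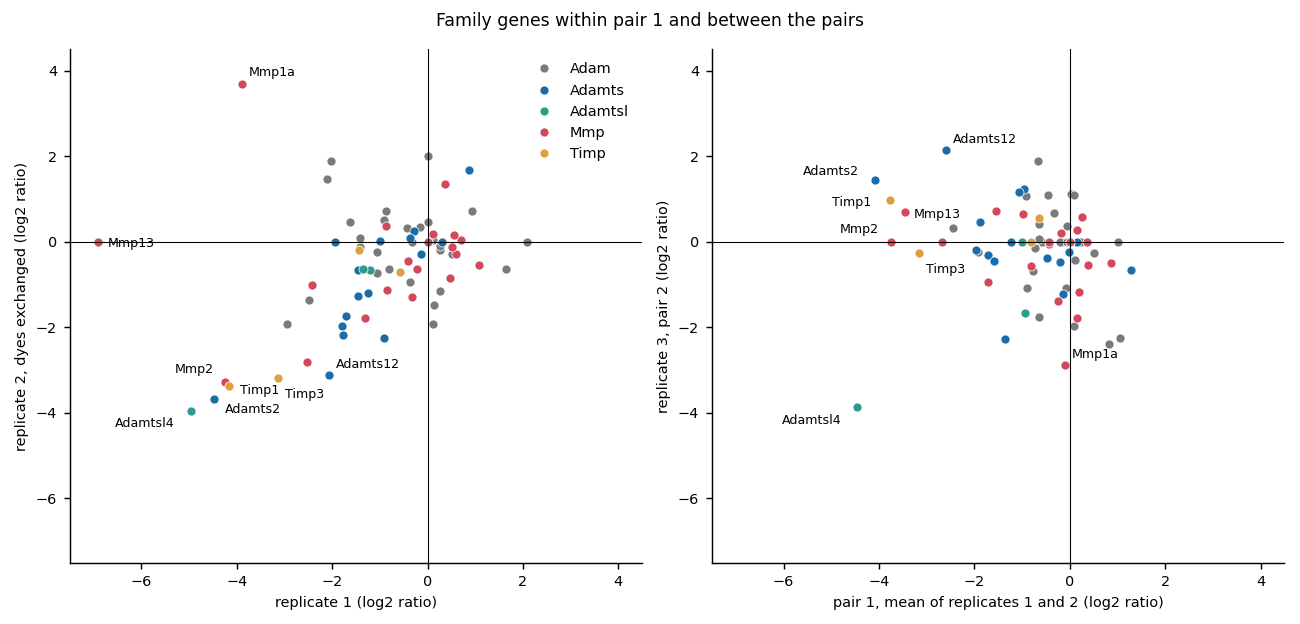
Left, log2 ratio of the 74 genes on replicate 1 against replicate 2, which carried the same RNAs with the dyes exchanged; right, the mean of pair 1 against replicate 3. Points are genes coloured by family. Timp1, Timp3, Mmp2, Adamts2 and Adamtsl4 lie in the lower left of the first panel, and of these Adamtsl4 is far below 0 on the vertical axis of the second.

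Probes of the same gene did not always agree. Of the 74 genes, 42 had 1 probe and 32 had 2 to 4. In 22 of the 32 the measured probes differed in sign on at least 1 array. The 10 whose measured probes kept 1 sign on each array were Timp3, Mmp13, Adam5, Adam10 and 6 ADAMTS genes, Adamts1, Adamts2, Adamts5, Adamts12, Adamts16 and Adamts20. An array with fewer than 2 measured probes of a gene could show no difference. This held for Adamts5, Mmp13 and Adam5 on replicates 2 and 3, and for Adamts12 and Adamts20 on replicate 3. The median range between probes of a gene was 1.82, 1.30 and 1.03 log2 units on replicates 1 to 3, wider than many of the ratios. Without the 22 genes, and so over fewer members, the count of 23 lower on both arrays of pair 1 became 20 and that of 2 higher became 0. The share of all features under the same filter was not counted, so whether the members' share differs from it cannot be read here. Genes with near-identical copies (Adam1a and Adam1b, Mmp1a and Mmp1b, and Adam6 and Adam26, which the current annotation splits) may share signal, and probe sequences were not used here.

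**Figure D3:**
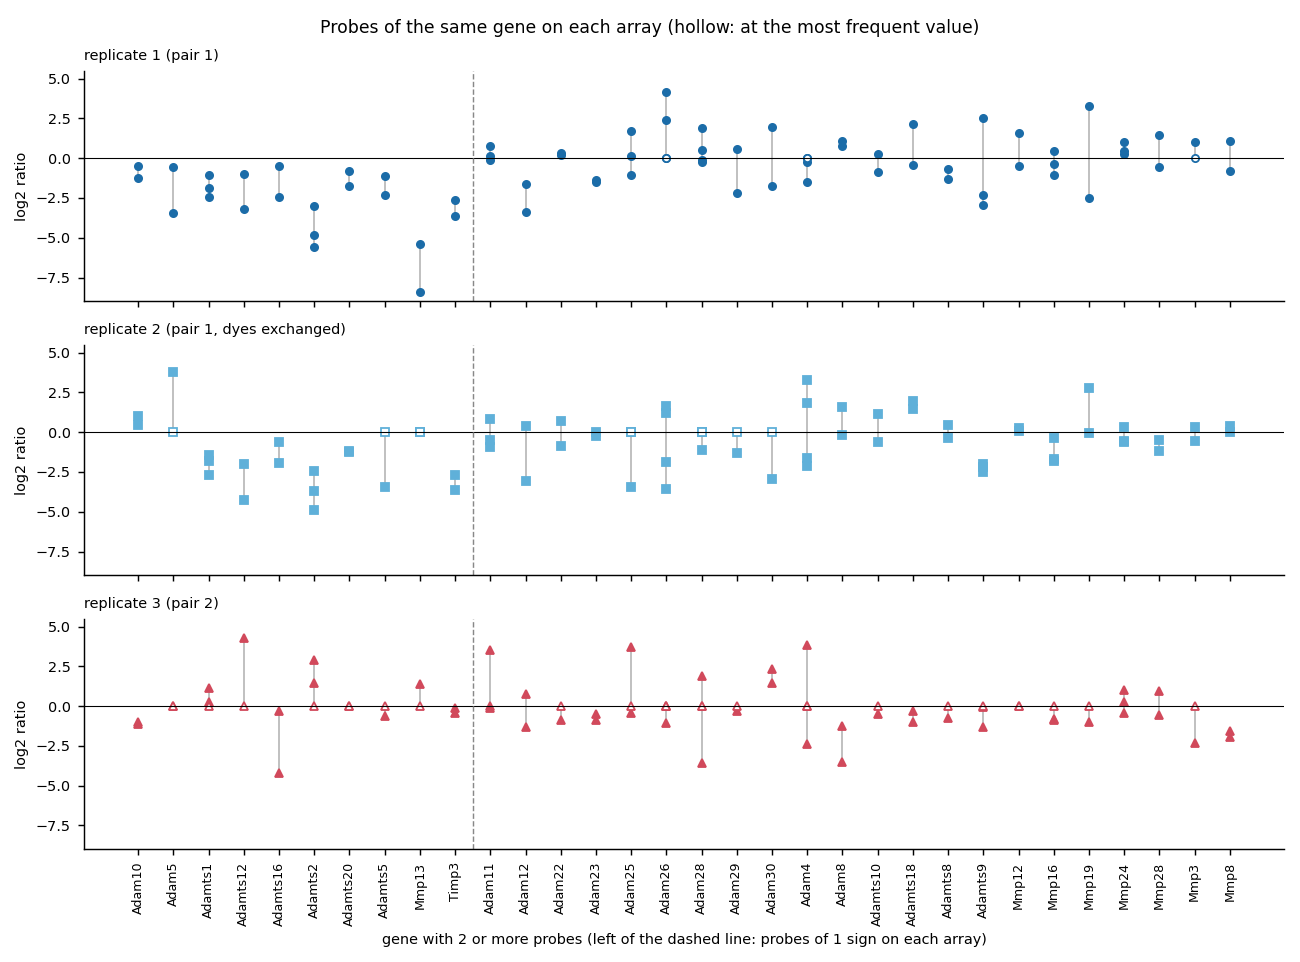
Log2 ratio of each probe of the 32 genes with 2 or more probes, on replicates 1 to 3 from top to bottom; grey lines span the probes of a gene and hollow symbols sit at the most frequent value. In the 10 genes left of the dashed line no measured probes differed in sign on an array. All 3 probes of Adamts2 lie far below 0 on both arrays of pair 1.

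A further 12 probes carry an older platform name that the current annotation gives to these families, and they were left out of the members. Of these, 7 belong to 6 member genes. One probe listed for Adamts5 read 2.91 and 3.27 on replicates 1 and 3 with no measurement on replicate 2, and the other 1.12, 1.22 and 0.84. Both were above 0 wherever measured, opposite to the member's -1.71, -1.73 and -0.32. The probe for Adamtsl1 read -0.73, 1.13 and 0.49. The probe for Adamtsl3 read -1.11, -0.55 and -0.84, of the same sign as the member where that was measured. The other 5 belong to 4 more genes. One probe for Adamts3, a protease of procollagen and reelin, read 1.83, 1.60 and -0.31, and the other 4.75 with no measurement on the other arrays. The probe for Adamtsl2 read -0.84, 0.61 and -1.28, that for Adamtsl5 -2.15 and 0.062 on replicates 1 and 3, and that for Adam6b -0.87 and 0.56 on pair 1.

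Partners of these proteases gave 0 calls among 42 measured genes of 43 listed, with 8 at least 1.5-fold lower on both arrays of pair 1 (19.0%, against 9.17%) and 0 higher. Reck, a membrane-anchored inhibitor of MMPs and Adam10, read -0.76, -1.79 and -0.040. Furin, which activates the proenzymes, read -0.16, -0.46 and -0.46, and Rhbdf1, a carrier of Adam17, -2.36, -0.65 and -0.025. Among 14 substrates and matrix partners the medians were -0.19, -0.080 and -0.20. Aggrecan (Acan) read -4.65, -2.56 and 0.77, and fibrillin 1 (Fbn1), a partner of ADAMTS-like proteins, -3.26, -2.04 and 0.73. The receptor gene Notch1 read 0.43, 0.41 and 0.35, and neurocan (Ncan), a proteoglycan of brain, 0.0052, 0.66 and -0.10. Of the plasminogen system, which activates MMPs, 4 genes were measured, with medians of -1.16, -0.056 and 1.26; Plau, the urokinase gene, read -2.42, -0.36 and 1.22. The 8 other proteases of the metzincin group had medians of -0.21, 0 and -0.066, and their Bmp1, a procollagen C-proteinase, read -0.44, -0.025 and -0.52.

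Markers of other tissues and cell types were mostly below 0 on both arrays of pair 1. Of the 74 members, 32 were below 0 on both (43.2%, against 22.9% of all features). There were 62 measured markers of skeletal tissue, muscle, skin, meninges, vessels, leukocytes and choroid plexus. Of these, 48 were below 0 on both arrays of pair 1 (77.4%, against 22.9% of all features). On both arrays, 39 were at least 1.5-fold lower (62.9%, against 9.17%). The same 22.9% stands beside the counts below 0 of each list that follows. Meningeal and fibroblast markers had medians of -3.23, -3.34 and 0.52, and 12 of 12 genes were below 0 on both arrays of pair 1. Those of skeletal tissue, muscle and skin were -4.65, -4.13 and 0.65, and 14 of 19 genes were below 0. For endothelium and pericytes the medians were -0.79, -0.94 and 0.15 (8 of 12 genes below 0 on both). Microglia and leukocytes gave -1.49, -0.89 and -0.068 (9 of 12), and choroid plexus -0.94, -1.08 and 0.25 (5 of 7). Markers of cortical projection neurons and progenitors ran the other way in pair 1, with medians of 1.74, 1.66 and -0.077. Of these 16, 13 were above 0 on both arrays of pair 1, against 6168 of all 28338 features. On replicate 3 the meningeal and fibroblast list was not of 1 sign: 9 of its 12 genes were above 0, 2 below and 1 without measurement. Of all 28338 features, 10640 were above 0 there and 11608 below. The 2 below were Ptgds (-5.50, -5.35 and -2.41) and Slc6a13 (-2.98, -3.07 and -0.565). Among the 9 above, the collagen gene Col1a1 read -4.50, -3.50 and 2.82, and Col3a1 -3.01, -3.09 and 2.35. The part of these tissues in the ratios of the metalloproteinase genes was not tested.

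**Figure D4:**
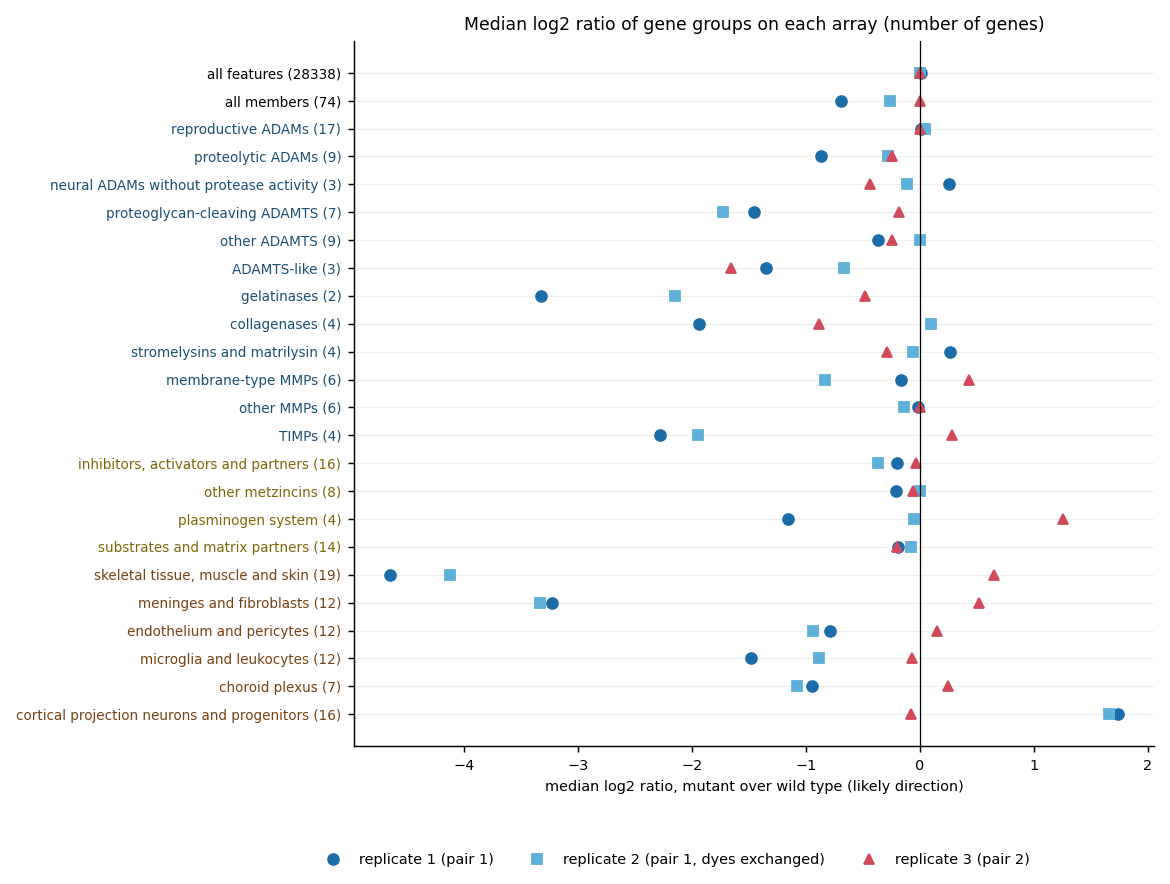
Median log2 ratio on each array for all features, for subgroups of the 74 genes (blue labels) and for partner lists (olive). Marker lists of other tissues and cell types and of cortical neurons and progenitors are in brown. The number of measured genes is in brackets. TIMPs, gelatinases and proteoglycan-cleaving ADAMTS have medians below 0 on both arrays of pair 1. So do the 5 marker lists of other tissues and cell types, while the cortical list lies above 0 on those arrays.

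The targeted gene, Smarca1, had 1 probe, which read -0.017, 0.36 and 3.11. Where it lies relative to exon 6 was not known here, so it checks neither the deletion nor the labels. The arrays hold ratios, so the presence of cortical markers as levels was not checked.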

How the data were processed

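Each of 3 arrays carried embryonic mouse cortex RNA in 2 colours. The labels' protocols name the RNeasy mini kit for isolation and a 3DNA Array kit for labelling. Per the labels, mutant RNA was in Cy5 on replicates 1 and 3 and in Cy3 on replicate 2. The deposited values are read as log2 ratios. The base was inferred from the spots within 0.0015 of 1 log2 unit from the most frequent value, 102, 103 and 152 of them on replicates 1 to 3, against 28, 27 and 24 in a neighbouring window of equal width. The authors' scanner, background correction and scaling were not given in the sources used here. No value was missing. Without intensities, dim spots could not be filtered. The small number of arrays sets the precision.

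The platform annotation gave 1 gene symbol to 30457 of 38880 probes, several to 0 and none to 8423. Of 21476 symbols, 12795 were current in RefSeq GRCm38.p6, 8317 were updated through a synonym and 364 kept. Probes of a symbol were averaged, and family members kept only probes chosen by the rule. Replicates 1 and 2 were averaged, and the 2 pairs were tested with limma 3.58.1 in R 4.3.3 (functions lmFit and eBayes, threshold 0.05 after Benjamini-Hochberg adjustment over all features), after a test on simulated data. Nothing states that the samples came from separate litters, so p-values measure only the spread between these samples. The ± values are limma's moderated SE. Median total degrees of freedom were 2.08. The members, lists and tests were chosen with earlier results of these data known. Named by rule were all Timp and Adamtsl genes, Mmp2, Mmp9, Mmp14, Adam10 and Adam17. In Adam, Adamts and Mmp, the rule added up to 5 genes of each sign shared by all arrays, and up to 4 with opposite signs in the pairs. Examples from the partner lists were taken from genes listed in the same rule. Other members are marked where named or given as examples of a count. Alternatives covered features, replicates, dye, eBayes, scaling, thresholds and spots at the most frequent value. Python 3.11.15 with matplotlib 3.10.9 drew the figures.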

Additional observations from a re-analysis of the deposited data

How the results depend on the processing

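The count of 0 genes called, over all features and over the 74 members, was the same in limma under every alternative run: single probes, independent arrays, a dye term, robust eBayes, both scalings, spots at the most frequent value as missing, an adjusted p of 0.10, and without replicate 1 or 2. At an unadjusted p under 0.05 there were 716 features in the reported test and 579 to 2023 in the alternatives; among members these were 3 and 1 to 7. Adamtsl4 stayed between -4.45 and -3.91 over 9 alternatives, with adjusted p 0.682 to 1.00 in the 8 that gave one; the dye term was added after seeing the data. The reported test is itself paired, because each ratio is already a difference within 1 pair of samples. No further pairing was possible, as a replicate block has nothing left to compare.

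The 5 members past 1.5-fold on all 3 arrays became 2 at 2-fold. With every probe as a feature there were 8, of which 7 were lower and 1 higher. With 1 array left out there were 6 to 25, 10 without replicate 2 and 25 without replicate 3, where fewer arrays had to pass. The 25 members past it on both arrays of pair 1 became 16 at 2-fold and 38 with every probe as a feature. They became 40 to 44 with replicate 1 or 2 left out, again by fewer arrays. Of these settings, shares of all features were counted only for 1.5-fold on all 3 arrays and on both arrays of pair 1. The other counts have no background share beside them and are no result about the members. With spots at the most frequent value as missing, family medians over the pairs moved from -0.12 to -0.35 for Adam, from -1.30 to -2.73 for Adamtsl and from -0.22 to -0.61 for Mmp, since fewer values counted. With probes of updated symbols, an alternative chosen after seeing the data, the Adamtsl median was -0.70. The alternative without genes whose probes differ in sign was also chosen then. The other medians moved less than the difference between the pairs. Without replicate 3 that limit decides little, because only pair 1 is left. The largest moves there were from -0.52 to -1.14 for Adamts and from -0.90 to -1.99 for Timp. Single spots near background cannot be separated from measured ones here.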
